A study of Mus musculus with 2 samples.

Results

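The genes described here encode the stem cell factor receptor KIT, its relative FLT3, the receptor chains for interleukin 3 and granulocyte-macrophage colony-stimulating factor, the gp130 chain Il6st, and signalling proteins that act below such receptors. They were chosen by name and not by any measured value, though with earlier results of these data known. The 10 genes were Kit, Flt3, Csf2rb, Csf2rb2, Csf2ra, Il3ra, Il6st, Lyn, Gab1 and Gab2, and all 10 were found among 43346 annotated gene rows. The transcript tables held 29 transcripts of these genes among 103639. Levels were measured by polyA RNA-seq in the mouse erythroid line G1E-ER4, in 2 libraries that form 1 group. G1E-ER4 is an immortalized line without functional Gata1 of its own, into which Gata1 activity was brought back as a fusion with an estrogen receptor domain. Both libraries came from cells kept for 7 hours in 17beta-estradiol at 10 nM, the agent that switches the fusion on. The labels number them biological replicates 1 and 2 but give both the same biosample record. Whether the cultures were separate is not stated, so differences between the libraries may be technical. The p-values below compare these libraries alone and do not measure a spread between cultures. No untreated cells were part of the series, so nothing below is a change with estradiol. Because all cells descend from 1 line, the values describe that line and not erythroid precursors in an animal.

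KIT is a receptor tyrosine kinase that carries the signal of stem cell factor and sustains the survival and growth of early erythroid, mast and stem cells. In erythroid maturation GATA1 is known to repress Kit. The receptors for interleukin 3, interleukin 5 and granulocyte-macrophage colony-stimulating factor each join a ligand-binding alpha chain to the shared beta chain Csf2rb. Mice carry a further beta chain, Csf2rb2, that serves interleukin 3 alone. Beta chains bind JAK kinases and have no kinase activity themselves, while Lyn is a SRC family kinase and Gab1 and Gab2 are docking proteins that receptors of both kinds use to reach phosphatidylinositol 3-kinase and RAS.

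Replicate 1 held 59610969 expected counts over all gene rows and replicate 2 held 44689405. Levels are given in TPM, a measure of transcript abundance divided by gene length and scaled to the same total in each library, which allows levels of different genes to be compared. Detection required that TPM reach 1 in each library, and 7 of the 10 genes met this, beside 38.3% of 21474 protein-coding genes. All 12 erythroid markers were detected, led by Hba-a1, Hba-a2, Klf1 and Gata1, with summed TPM of 12479 and 8447. Protein-coding transcripts made 1.44% and 4.60% of the Hba-a1 TPM. Whether the Gata1 level came from the introduced fusion was not tested. Of the 12 mast cell and basophil markers only Hdc was detected, at 8.51 and 6.74, and 8 had no count in either library, among them the high-affinity IgE receptor chains Fcer1a and Ms4a2. That list summed to 8.73 and 7.07. Of 15 myeloid markers Spi1, at 25.3 and 25.7, and Cd68, at 1.73 and 1.90, were detected and 6 had no count; the list summed to 27.3 and 29.0. Of 8 stem and progenitor markers only Meis1 was detected, with list sums of 4.46 and 4.84. Megakaryocyte markers summed to 91.4 and 97.7, mostly from Gp1ba and Gp5, with 3 of 7 detected. The lymphoid list summed to 1.79 and 1.86, with Lck alone of 8 detected. In bulk RNA, fewer cells of a type and less RNA per cell cannot be told apart.

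The level of the beta chain Csf2rb stood above that of every other gene of the set, and its close relative Csf2rb2 was far lower. The order by mean TPM was Csf2rb, Lyn, Kit, Il3ra, Csf2rb2, Gab1, Gab2, Csf2ra, Il6st and Flt3. The ranges of neighbours in this order did not overlap, except for Gab2 and Csf2ra, where the lower Gab2 value of 1.30 lay under the higher Csf2ra value of 1.48. With 2 libraries a gap between ranges is a description and not a test. The place of Lyn in this order holds for the gene as a whole and not for its protein-coding transcripts. The median level of the 10 genes was a TPM of 9.04, beside 0.03 over all protein-coding genes and 20.8 over the detected ones.

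**Figure D1:**
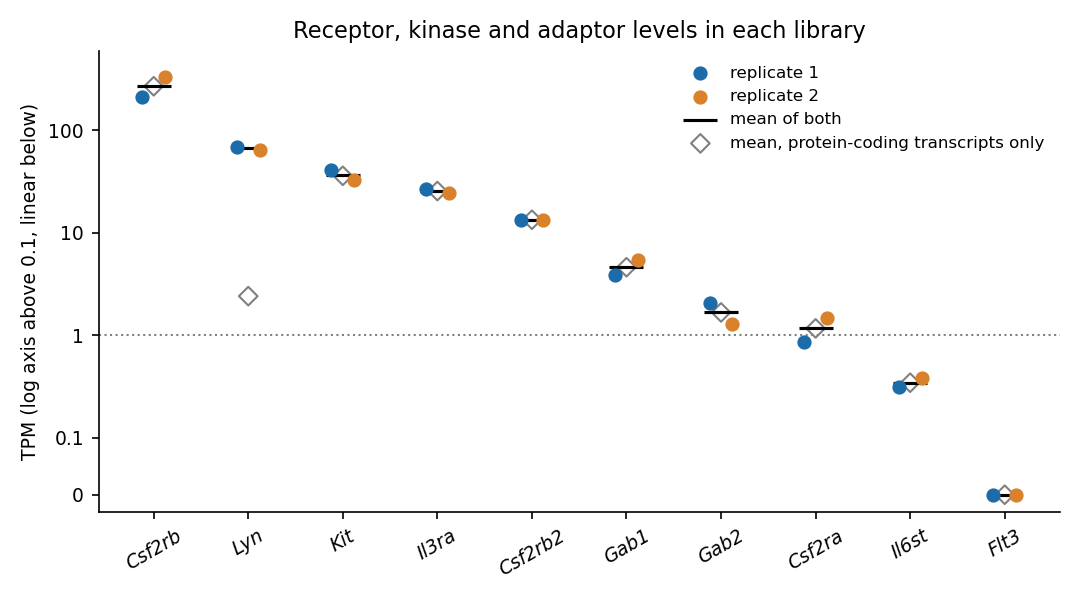
TPM of each of the 10 genes in each library, on an axis that is logarithmic above 0.1 and linear below, with a dotted line at the detection level of 1. Csf2rb stands highest at 211 and 329, Csf2ra lies on both sides of the line at 0.86 and 1.48, and Flt3 lies at 0 in both libraries.

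The receptor tyrosine kinases Kit and Flt3 stood at opposite ends. Kit (ENSMUSG00000005672; chromosome 5, 75574916 to 75656722, forward strand, GRCm38) had TPM of 41.3 in replicate 1 and 32.6 in replicate 2, from 10405 and 5692 counts. Its mean of 37.0 ± 6.17 (SD, n = 2) placed it at rank 3023 of the protein-coding genes, above 85.9% of them. Flt3 (ENSMUSG00000042817; chromosome 5, 147330741 to 147400489, reverse strand), the receptor for FLT3 ligand on early progenitors, had 0 counts in both libraries. A count of 3 would have been a TPM of 0.0143 in replicate 1 and 0.0205 in replicate 2, so a level up to about these values was not detectable at this depth. Kitl, the gene of the KIT ligand, also had 0 counts in both libraries.

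The Kit transcripts were of interest because KIT occurs in forms with and without 4 residues, GNNK, beside the membrane. In the annotation Kit-201 holds the 12 coding bases of this insert (chromosome 5, 75639147 to 75639158) and Kit-204 lacks them. The joined exon ends, on the forward strand and taken from GENCODE M21 transcripts, are shown with the insert in capitals and 30 bases on each side.
Kit-201: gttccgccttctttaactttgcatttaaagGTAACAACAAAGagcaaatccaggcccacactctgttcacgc
Kit-204: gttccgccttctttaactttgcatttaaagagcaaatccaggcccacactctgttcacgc
Kit-201, with the insert, took 84.9% and 89.1% of the TPM of Kit in replicates 1 and 2. Kit-204, without it, took 13.0% and 8.13%. The form with the insert was thus the larger one in both libraries by this estimate. By the authors' posterior mean TPM the shares were 81.1% and 74.0% for Kit-201 and 16.2% and 22.2% for Kit-204, so the library with more Kit-204 differed between the estimates. The deposited intervals of Kit-204 covered TPM of 2.70 to 12.3 in the first library and 0.938 to 15.4 in the second. These intervals overlap widely and the share of Kit-204 was not told apart between the libraries. The deposited intervals of Kit-201 covered 27.5 to 37.4 in replicate 1 and 15.4 to 30.4 in replicate 2. The intervals of Kit-201 and Kit-204 were thus apart in replicate 1 but met in replicate 2, where their order is less certain. Apart from the 12 bases, Kit-204 differs from Kit-201 only by 39 bases at its 5′ end. The other 4 Kit transcripts in the tables are retained introns. The highest of these were Kit-203, with 1.89% and 0.89% of the TPM, and Kit-202, with 0% and 1.87%.

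Csf2rb (ENSMUSG00000071713; chromosome 15, 78325752 to 78353847, forward strand) had TPM of 211 and 329, from 49191 and 53793 expected counts. The mean was 270 ± 84.0 (SD, n = 2), at rank 530 of the protein-coding genes. Csf2rb2 (ENSMUSG00000071714; chromosome 15, 78282507 to 78305721, reverse strand), the beta chain for interleukin 3 alone, had TPM of 13.4 and 13.5, from 3021 and 2134 expected counts. Csf2rb was higher in replicate 2 and Csf2rb2 was nearly equal in both. The level of Csf2rb exceeded that of Csf2rb2 by 15.7-fold in replicate 1 and 24.4-fold in replicate 2.

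These neighbours are near-identical copies, so how a short read is divided between them bears on both values. Their coding sequences, of 2688 and 2634 bases, aligned over 2628 bases with 125 differences, an identity of 95.2%, and 66 further positions were present in one gene only. The longest run without a difference was 242 bases. Of 26 full windows of 100 aligned bases, 3 held no differing base, the median window held 4 and the most different held 16. A stretch of 90 coding bases from the most different region shows the kind of differences by which a read can be placed. The coordinates are chromosome 15, 78338897 to 78338986 on the forward strand for Csf2rb and 78294345 to 78294434 on the reverse strand for Csf2rb2, both GRCm38, and the 16 differing bases are in capitals.
Csf2rb: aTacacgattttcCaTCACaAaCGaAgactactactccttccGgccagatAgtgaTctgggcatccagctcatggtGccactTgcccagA
Csf2rb2: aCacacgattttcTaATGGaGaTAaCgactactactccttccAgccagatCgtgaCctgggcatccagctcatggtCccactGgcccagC
The authors' posterior SD of the expected count was 33.2 in replicate 1 and 45.7 in replicate 2, the same for both genes. Beside the 3021 and 2134 counts of Csf2rb2 this error of the split is small. It does not cover sequence differences between the cells and the reference, which were not tested, so the levels of this pair, Csf2rb2 above all, remain uncertain in that respect.

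**Figure D2:**
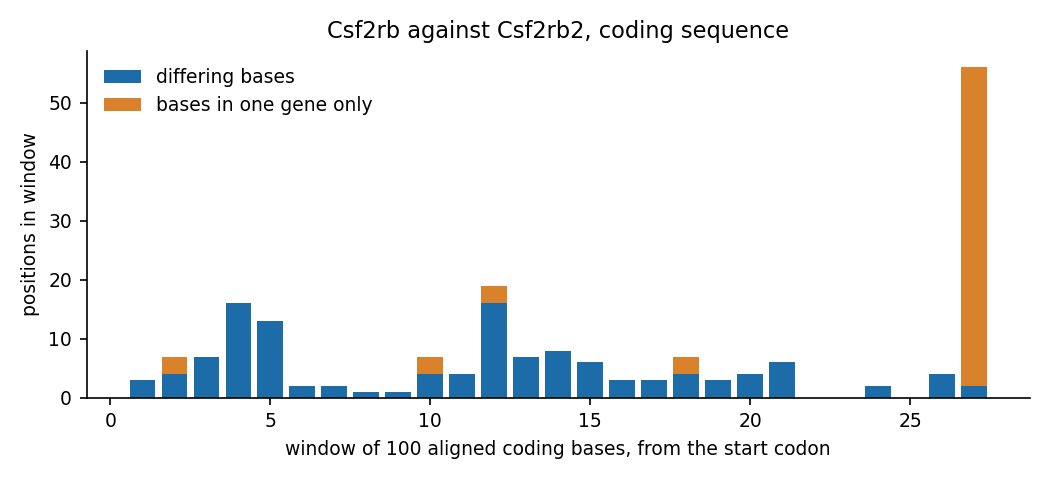
Positions that differ between the coding sequences of Csf2rb and Csf2rb2 in consecutive windows of 100 aligned bases from the start codon, with differing bases and bases present in one gene stacked. Of the 26 full windows 3 hold no differing base, and the most different holds 16.

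The alpha chains of the same receptors were unequal. Il3ra (ENSMUSG00000068758; chromosome 14, 14346275 to 14356011, forward strand), the interleukin 3 binding chain, had TPM of 26.6 and 24.6, a mean of 25.6 ± 1.43 (SD, n = 2). Csf2ra (ENSMUSG00000059326; chromosome 19, 61223957 to 61228429, reverse strand), which binds granulocyte-macrophage colony-stimulating factor, had TPM of 0.86 and 1.48, from 74 and 89 counts. The exact 95% Poisson intervals of these counts were 58.1 to 92.9 and 71.5 to 110, covering counting error only. Csf2ra thus lay under the detection level in replicate 1 and over it in replicate 2. Il5ra, the interleukin 5 binding chain, had 0 counts in both libraries.

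Within each library the level of Il3ra exceeded that of Csf2ra by 31.0-fold and 16.6-fold. The level of Csf2rb exceeded that of Il3ra by 7.91-fold and 13.4-fold, and that of Csf2ra by 245-fold and 223-fold. Il3ra lay above Csf2rb2 by 1.99-fold and 1.82-fold per length. The ligand genes Il3, Csf2 and Il5 had 0 counts in both libraries.

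The gp130 chain Il6st (ENSMUSG00000021756; chromosome 13, 112464070 to 112510086, forward strand), shared by the receptors for interleukin 6 and its relatives, was low, with TPM of 0.31 and 0.38 from 133 and 109 counts. The posterior mean TPM was 0.96 and 1.21, and the authors' intervals ran from 0.391 to 1.82 and from 0.512 to 2.24. In each library the TPM lay under its interval. The estimates differ in how they divide the level of the gene among its transcripts. Il6st-203, a coding transcript of 8678 bases, took 96.9% and 94.6% of the TPM but 29.5% and 26.4% of the posterior mean TPM. There Il6st-202, a much shorter transcript with 0 expected counts, took 43.2% and 39.7%. Of the partner chains, Il6ra, Lifr and Il27ra had 0 counts in both libraries, and Osmr had 0 and 1. The partner chains Il11ra1 and Cntfr were detected, Il11ra1 at TPM of 4.46 and 8.89 and Cntfr at 1.49 and 2.66. Protein-coding transcripts made 49.1% and 15.3% of the Il11ra1 TPM, and 0% and 4.14% of the Cntfr TPM. By expected counts these shares were 89.6% and 63.0% for Il11ra1 and 0% and 1.96% for Cntfr. Osm and Ctf1, which encode ligands of gp130 receptors, were detected, Osm at 2.08 and 2.65 and Ctf1 at 1.54 and 1.98.

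Lyn (ENSMUSG00000042228; chromosome 4, 3678115 to 3813122, forward strand) had TPM of 69.5 and 64.4, a mean of 66.9 ± 3.59 (SD, n = 2), from 2330 and 1388 counts. Nearly all of this level came from Lyn-204, a processed transcript with no coding sequence, which had TPM of 66.2 and 62.9. Lyn-204 took 95.3% and 97.6% of the TPM of the gene. By expected counts, which are not divided by length, it took 76.5% and 86.8%. The protein-coding transcripts Lyn-201 and Lyn-202 together had TPM of 3.27 and 1.56, a mean of 2.42 ± 1.21. Lyn-201 had 493 and 183 expected counts, Lyn-202 had 54.7 and 0, and Lyn-203 had 0 in both libraries.

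Lyn-204 is short, and the part of it that sets it apart lies in an intron of the coding transcript. It has 687 bases in 2 exons (chromosome 4, 3678130 to 3739176), beside 3463 bases in 13 exons for Lyn-201. It shares 372 bases with Lyn-201 and runs on for 315 bases into the following intron. A count on the shared 372 bases does not by itself name the transcript, and the tables hold no counts by exon. The lincRNA gene Gm26857 overlaps the 5′ end of Lyn on the other strand (3678117 to 3689548) and had 53 and 52 counts. Whether counting used strand was not given in the sources used here, so reads on the overlap of this pair cannot be told apart. The 315 intron bases of Lyn-204, from 3738862 to 3739176, lie outside that overlap.

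A protein-coding share as low as that of Lyn was uncommon but not confined to Lyn. Among 8219 detected protein-coding genes the median share of TPM in protein-coding transcripts was 99.4%, and 482 genes, 5.86% of them, had a share under 10%. Lyn had 3.56%, and 2.41% of the detected genes had a lower share. By expected counts the share of Lyn was 18.3%, and 4.51% of the genes lay lower.

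**Figure D3:**
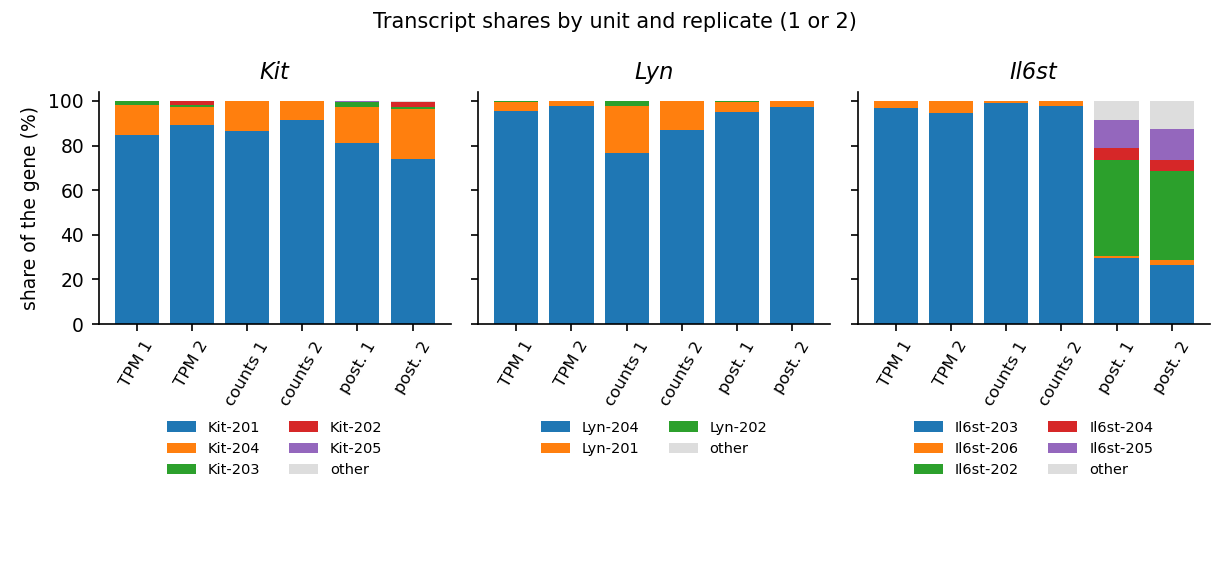
Share of each gene's total assigned to each transcript for Kit, Lyn and Il6st, by TPM, by expected counts and by posterior mean TPM ("post."), in replicates 1 and 2. Kit-201 and Lyn-204 are the largest part under every measure, while Il6st-203 falls from 96.9% and 94.6% of TPM to 29.5% and 26.4% of the posterior mean TPM.

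Lyn was the highest SRC family kinase gene by TPM of the gene but not by protein-coding transcripts. Of the summed TPM of the SRC family genes Lyn took 83.0% and 82.7%, a mean of 82.9% ± 0.216 (SD, n = 2). Over protein-coding transcripts alone, a measure chosen after seeing the data, it took 20.7% and 11.6%, a mean of 16.1% ± 6.47. There Fyn stood above it, at 9.96 and 10.0. Yes1 had TPM of 2.03 and 1.16 and Src 0.83 and 0.99. Lck, a kinase of lymphocytes, had 1.39 and 1.27, of which coding transcripts made 0.01 and 0.06. Fgr, best known from myeloid cells, Blk, best known from B cells, and Frk had 0 counts in both libraries.

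**Figure D4:**
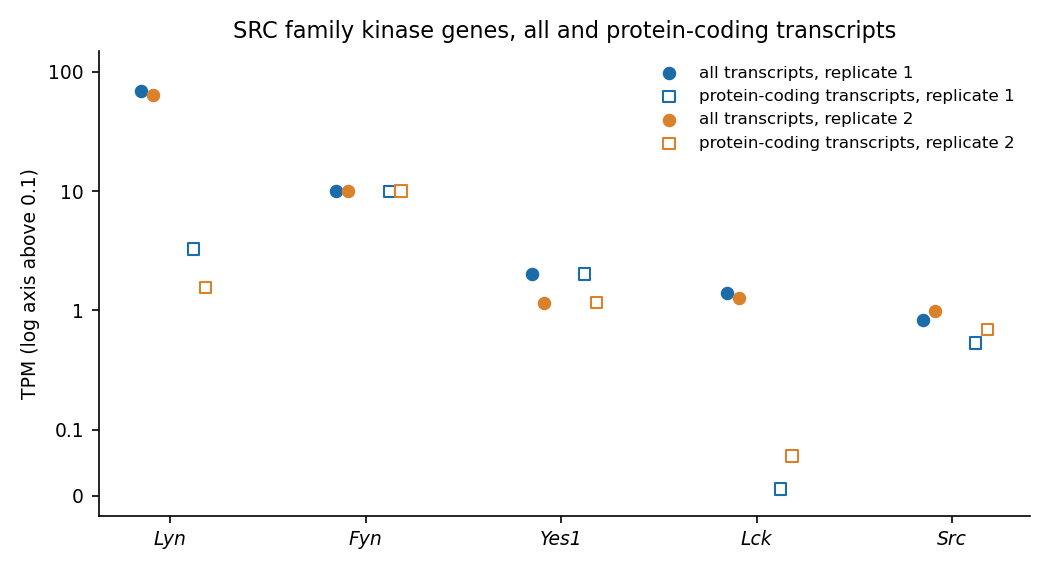
TPM of the 5 SRC family kinase genes with counts, in each library, for all transcripts of the gene and for its protein-coding transcripts, on an axis that is logarithmic above 0.1. Lyn is highest for all transcripts at 69.5 and 64.4 and lies below Fyn for protein-coding transcripts, at 3.27 and 1.56.

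Of the docking proteins, Gab1 (ENSMUSG00000031714; chromosome 8, 80764438 to 80880519, reverse strand) had TPM of 3.85 and 5.40, a mean of 4.62 ± 1.10 (SD, n = 2). Gab2 (ENSMUSG00000004508; chromosome 7, 97081586 to 97308946, forward strand), known for its role below KIT in mast cells, had TPM of 2.05 and 1.30, a mean of 1.68 ± 0.53. Gab1 was higher than Gab2 in both libraries, but the libraries moved the genes in opposite directions, so the ratio was 1.88 in replicate 1 and 4.15 in replicate 2. Gab3, the remaining family gene, had TPM of 0.42 and 0.04, from 43 and 3 counts.

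None of the genes differed between the libraries by the rule used for the whole table. A two-sided exact binomial test compared the counts of each gene with the ratio of scaled library sizes. Genes whose summed counts reached 10 entered it, 11285 in all, and p-values were adjusted over these by the method of Benjamini and Hochberg. Calls needed a 2-fold difference as well as an adjusted p below 0.05. The test takes counting noise as the only error and compares these libraries, not conditions. Of the 9 genes tested, 0 were called, beside 11.2% of all genes tested, 2.8% being higher in replicate 2 and 8.37% higher in replicate 1. By the adjusted p alone, 7 of the 9 passed, 77.8%, beside 68% of all genes. With edgeR's exact test and a common dispersion (a biological coefficient of variation of 0.288), 0 of 9 were called, beside 0.913% of all genes, and 0 had an unadjusted p under 0.05, beside 6.14%. The smallest unadjusted p among the 9 by edgeR's exact test was 0.169. The dispersion was estimated from the same 2 libraries taken as 1 group, so the differences under test also set the error. Few calls follow from that, and the edgeR result is not a separate check. Its coefficient is called biological by edgeR's naming, while the spread may be technical. Flt3 had too few counts to be tested.

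Smaller differences were present in both directions. On the log2 scale of scaled counts, replicate 2 over replicate 1, the ratio was 0.89 for Csf2ra, 0.75 for Csf2rb, 0.60 for Gab1, 0.34 for Il6st, 0.12 for Csf2rb2 and 0.01 for Il3ra. It was −0.12 for Lyn, −0.25 for Kit and −0.55 for Gab2. Csf2rb2 and Il3ra take the opposite sign when libraries are scaled by total counts. The median size of the ratio, without its sign, was 0.34 for the 9 genes and 0.39 for all genes tested. Csf2ra and Csf2rb, the receptor chains with the largest ratios, lay higher in replicate 2. Of the 15 myeloid markers 6 had enough counts to be tested. Of these, 3 were called higher in replicate 2, beside 2.8% of all genes tested. They were Mpo with 0 and 24 counts, Elane with 1 and 10 and Cebpe with 2 and 15, each at a TPM under 0.4. The other 3 tested were not called: Csf3r had 8 and 3 counts, and Spi1 and Cd68 had the near-equal TPM given above. The summed TPM of the myeloid list was 27.3 and 29.0, and its part in the difference was not tested. Other marker lists held calls the other way. Of those tested, 1 of 12 erythroid and 1 of 2 stem and progenitor markers were called higher in replicate 1, beside 8.37% of all genes tested. In the mast cell and basophil, megakaryocyte and lymphoid lists 0 were called.

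**Figure D5:**
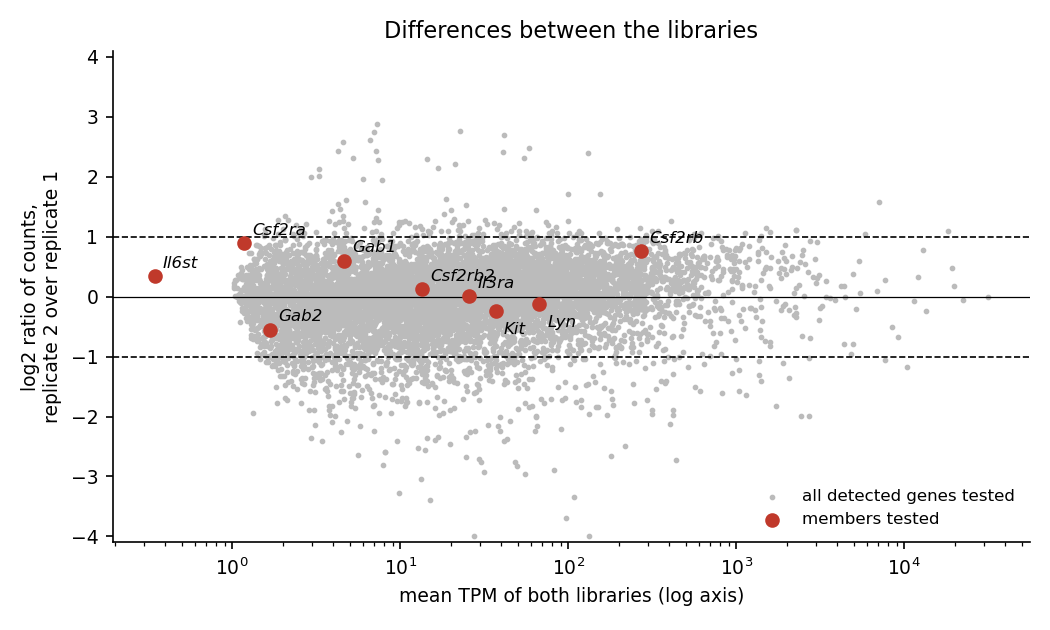
Log2 ratio of scaled counts, replicate 2 over replicate 1, against mean TPM on a log axis, for all detected genes tested (grey) and the 9 genes of the set that were tested (red), with dashed lines at a 2-fold difference. The 9 genes lie between −0.55 for Gab2 and 0.89 for Csf2ra, inside the lines.

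Around these receptors, the lists differed in how many of their genes were detected, from 2 of 12 ligand genes to 10 of 11 JAK and STAT genes, beside 38.3% of all protein-coding genes. Other cytokine receptors, with 7 of 19, and SRC family kinases and their control, with 7 of 17, lay near that background. Of 128 pathway genes in 8 lists, 84 were detected and 23 had 0 counts in both libraries. The median TPM was 6.38. Of 95 tested, 6 were called different between the libraries, 2 higher in replicate 2 and 4 higher in replicate 1, a share of 6.32% beside the 11.2% of all genes.

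Of 12 ligand genes 2 were detected, Osm and Ctf1, and 9 had 0 counts. Of 19 other cytokine receptor genes 7 were detected and 6 had 0 counts. The erythropoietin receptor Epor, the main cytokine receptor of red cell precursors, had TPM of 184 and 153, below Csf2rb in each library and above the other 9 genes of the set. Il2rg, the shared gamma chain, had 22.6 and 9.60 and was called lower in replicate 2, by 1.12 on the log2 scale. Ifnar1, an interferon receptor chain, had 8.44 and 6.92 and Il11ra1 had 4.46 and 8.89. By scaled counts Il11ra1 was nearly equal in both libraries, at −0.05 on the log2 scale.

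Among SRC family kinases and genes that control them, 7 of 17 were detected and 4 had 0 counts. Csk, the kinase that holds SRC family kinases inactive, had TPM of 280 and 368, above every SRC family gene. The phosphatase genes Ptpn11, at 38.0 and 29.1, and Ptpn6, at 9.67 and 8.76, were detected as well. Btk, at 4.17 and 0.98, was called lower in replicate 2.

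Of 22 adaptors and binding partners of GAB proteins 19 were detected, with a median TPM of 13.7. The highest were Inpp5d, a lipid phosphatase, at 171 and 317, the phosphoserine-binding adaptor Ywhaz at 201.9 and 243, Sh2b3, an inhibitor of JAK2 and KIT signals, at 150 and 255, and Crk at 155 and 212. All 4 had higher TPM in replicate 2, but by scaled counts, the scale of the calls, Inpp5d lay lower there, at −0.11 on the log2 scale. None of the 4 was called. Gab3 was the 1 gene called, higher in replicate 1.

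All but 1 of 11 JAK and STAT genes were detected. Their median TPM was 21.8, and 0 were called. Jak1 had TPM of 391 and 495, and Stat5b, a main effector of beta chain and erythropoietin signals, 67.3 and 63.8. Stat3 had 19.8 and 37.3 and Jak3 21.8 and 27.1. By scaled counts Jak1 and Stat3 were not higher in replicate 2, at −0.09 and −0.07 on the log2 scale. Jak3 lay at 0.40 and Stat5b at 0.04. Of 17 genes of the phosphatidylinositol 3-kinase and AKT route 13 were detected, led by Akt1 at 358 and 408, Foxo3 at 124 and 182, Pik3r2 at 93.4 and 132, and Akt2 at 102 and 83.6.

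Of 18 RAS and MAPK genes 16 were detected, among them Map2k2 at 389 and 630, Spred2 at 64.5 and 117, and Hras at 55.5 and 52.7. Spred1, an inhibitor of RAS signals, had 6.33 and 13.5 and was called higher in replicate 2. Of 12 feedback inhibitors 10 were detected. Cish and Socs2, known targets of STAT5, had TPM of 100 and 105 and of 59.9 and 58.5, each nearly equal in both libraries. Ptpn1 had 45.3 and 48.6 and Socs1 21.5 and 35.9. Ptpn2, a phosphatase of JAK kinases, had 8.09 and 2.32 and was called lower in replicate 2, by 1.68 on the log2 scale.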

How the data were processed

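PolyA RNA-seq was measured in 2 libraries of 1 group, and for each the authors deposited gene-level and transcript-level tables. The deposited expected counts are estimated, need not be whole and are not normalized; they were rounded for tests. The deposited TPM values are scaled by effective length, and a posterior mean, its SD and an interval stand beside them. The notes with the files give the assembly mm10 and GENCODE M4. The tools for alignment and quantification are not given in the sources used here. Names, positions, transcript types and sequences came from GENCODE M21 on GRCm38, the same assembly in a later release. Identifiers matched for 42462 of 43346 gene rows, and the others held 0.248% and 0.257% of the counts. Rows without a gene held 2 and 0 counts. Flt3l was not matched and is not analysed here. For Csf2rb, Csf2rb2, Csf2ra, Il3ra, Gab1 and Gab2 the tables held 1 transcript each, so no shares were computed. M21 lists 8, 4, 8, 7, 3 and 2 transcripts for these genes, in that order. Their levels therefore rest on 1 transcript model each, and the effect of the others was not tested. Csf2rb2-201 has 4612 bases in the tables and 4740 in M21.

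The genes and lists were chosen with earlier results of these data known. Named beside the 10 genes were the 4 highest detected genes of each pathway and marker list, the detected ligands and the pathway genes called where a list had 3 or fewer. Genes named outside this rule are SRC family kinases other than Fyn, ligands and partner chains of the receptors, Fcer1a, Ms4a2, Mpo, Elane, Cebpe, Csf3r and Gm26857, and genes of the closing section. Some genes that the rule names, and some sequences, are not reported here. The 3 genes Mpo, Elane and Cebpe were named after their values were seen.

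Libraries were scaled by TMM (edgeR 4.0.16, R 4.3.3), with a prior count of 0.5 in log2 ratios. The limit for genes with 0 counts is 3 counts. Tests ran in R, and Poisson intervals were computed in SciPy 1.17.1. A comparison of 1 library against 1 leaves no residual degrees of freedom for edgeR's quasi-likelihood test. The Csf2rb and Csf2rb2 sequences were aligned with Biopython 1.88. The fits were tested on simulated data. Alternatives were DESeq2 1.42.0 size factors, total counts, other filters, folds and estimates. Errors are the SD over 2 libraries. Poisson intervals cover counting error only, while the deposited intervals are the authors' own and, for Kit-204, are wider than that.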

Additional observations from a re-analysis of the deposited data

How the results depend on the processing

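The count of 0 called among the 9 genes tested held with DESeq2 size factors, total counts, no filter, a minimum of 50 counts, posterior mean counts and edgeR's exact test with a common dispersion. It was 3 at a fold of at least 1.5 (Csf2ra, Csf2rb and Gab1) and 7 with no fold minimum. Over the 11285 genes tested, 1261 calls became 103 with edgeR's exact test. The calls became 3131 at a fold of at least 1.5 and 7672, or 68%, with no fold minimum. Scaling by total counts moved the median log2 ratio of all genes from −0.02 to −0.23, the split of calls from 316 higher and 945 lower in replicate 2 to 167 and 1438, and turned the sign of Csf2rb2 and Il3ra, to −0.09 and −0.20. The share of Lyn among SRC family genes was 55.6% by expected counts, 81.3% by posterior mean TPM and 16.1% over protein-coding transcripts, the last chosen after seeing the data; these units and transcripts differ by construction. Without replicate 1, Csf2ra also met the detection level, which made 8 detected genes; lowering the level to 0.5 also gave 8, and raising it to 5 gave 5. The order of Il3ra and Csf2rb2 turned by expected counts, where Il3ra lay lower, at 0.553 and 0.509 of it, since its transcript is shorter. No paired analysis was possible because the libraries form 1 group. Leaving out a library leaves nothing to compare in the test between libraries, so that alternative gave no value. The dispersion of edgeR's exact test came from the libraries it compared, so that alternative is not a separate check. Depth limits what can be said of Flt3, which had 0 counts, and of Csf2ra, with 74 and 89.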

Other observations

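Lyn was not the only gene of these routes whose level came mainly from transcripts not annotated as protein-coding. Of the 84 detected pathway genes, 10 had a protein-coding share of TPM under 50%, beside 20.5% of all detected protein-coding genes; they were chosen after their values were seen. Nf1, which switches RAS off, had 21.5% and 12.1% of TPM but 83.7% and 73.3% of counts. Jak1 had 29.2% and 30.8% of TPM and 71.8% and 63.8% of counts. For Nf1 and Jak1 the coding transcripts therefore held most of the counts and less than 50% of the TPM, a unit divided by length. Cntfr, Lck, Ifngr1, Il11ra1, Pias3 and Rptor had mean shares of TPM from 2.07% to 40.1%.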
